A study of Mus musculus with 6 samples.

Results

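The CCN family comprises secreted matricellular proteins that act between cells and the extracellular matrix. The array carried 6 probes for 5 of its genes under their older names, out of 55681 probes: Ctgf (now Ccn2), Cyr61 (Ccn1), Nov (Ccn3), Wisp2 (Ccn5), each with 1 probe, and Wisp1 (Ccn4) with 2 probes. The probes were taken by gene name. The family itself was chosen on the measured values, because the tail-suspension to sham differences of these same arrays were already known, so the differences of its members are given as a description. No p-value is given for them, and where the text says on which side of the threshold a member fell, this describes the values that led to its choice. The sixth family gene, Wisp3 (Ccn6), was not among the chosen genes, and its single probe was not well above background on any of the 6 arrays.

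Gene expression was measured in cardiac muscle of male C57BL/6 mice, with 3 sham mice and 3 tail-suspended mice and 1 array per mouse. Tail suspension unloads the hindlimbs and shifts body fluid towards the head, and serves as a ground model of weightlessness. The suspended mice had their tails raised for 28 days, and the sham mice were kept under the same conditions without suspension. The labels give 10 weeks as the age at the start and 11 weeks as the age of both groups, which cannot both hold if 11 weeks is the age at the end of the suspension, so the age is uncertain. The labels name no other treatment. Total RNA was labelled with Cy3 and hybridised to 1-colour Agilent arrays, and the comparison asked which transcripts of the heart differ after simulated weightlessness.

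CCN proteins share an arrangement of cysteine-rich modules, namely an insulin-like growth factor binding domain, a von Willebrand factor type C domain, a thrombospondin type 1 repeat and a C-terminal cystine-knot domain, the last of which Wisp2 lacks. They act through integrins, heparan sulfate proteoglycans and LRP receptors, and by binding growth factors such as TGF-beta. Ctgf and Cyr61 are textbook target genes of the co-activators YAP and TAZ with TEAD factors, and they also respond to TGF-beta and to serum response factor. In the heart Ctgf is best known for its link to fibrosis and mechanical load.

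The measured sequences are shown because each value below is the signal of 1 short oligonucleotide and not of a whole transcript. Each probe is 60 bases long and its first 30 bases are printed in lower case, 5′ to 3′. Positions are those given in the array design for the mouse build mm9, and the annotation of exons and untranslated regions for that build was not used here.
Ctgf, A_51_P157042: gtcaaatccctgttggtgaacaaatggcct
Cyr61, A_51_P252859: aagattagttgggccaagtgaaagccctgc
Nov, A_52_P105537: aatgaaagatgttccgaatgtaaacttaga
Wisp1, A_51_P220343: cattcctcatttttctcatgatctgtgtag
Wisp1, A_55_P2132651: ctaacgatatctttgctgacttggaatctt
Wisp2, A_51_P390804: gtatttgtaaaaatacacatctcttaaatg

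The Ctgf probe lay at chr10:24318281-24318340 on the plus strand, from base 2194 of the transcript. The Cyr61 probe lay at chr3:145310187-145310246 on the minus strand, from base 1716. The Nov probe lay at chr15:54584204-54584263 on the plus strand, from base 1252. The Wisp1 probes lay on the plus strand at chr15:66754637-66754696, from base 4899, and at chr15:66750958-66751017, from base 1218. Their genomic starts were 3679 bases apart, so they read separate places of 1 transcript. The Wisp2 probe lay at chr2:163658717-163658776 on the plus strand, from base 1608.

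Each array detected 50.9% to 53.4% of its probes above background, and no spot was saturated. Probe values correlated at 0.994 to 0.996 within the sham group, at 0.991 to 0.995 within the tail-suspension group and at 0.978 to 0.984 between groups. The 6 arrays were on 1 slide. All 3 sham arrays and tail-suspension replicate 1 were in its first row, and tail-suspension replicates 2 and 3 were in its second row. Group and slide row are therefore partly confounded, and the value of replicate 1, the suspended mouse measured in the sham row, is given beside the results. A probe's level below is the log2 of its processed intensity over the 75th percentile of its array. Probes differ in how strongly they bind, so arrays are compared for each probe and probes are not compared with each other. A probe was fitted when it was well above background on all arrays of at least 1 group, and its difference passed the threshold at a Benjamini-Hochberg adjusted p under 0.05 in limma. Of 28032 probes fitted, 3023 were higher and 2683 were lower in tail-suspended hearts.

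Of the 6 CCN probes, 5 were fitted, and 2 of these passed the threshold, Ctgf higher and Wisp2 lower. Over all fitted probes 20.4% passed in either direction. The groups did not overlap for the same 2 CCN probes, whereas 44.0% of all fitted probes had groups that did not overlap. Because the family was selected on this comparison, nothing is read from these counts.

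Ctgf, which encodes connective tissue growth factor, was the family member with the largest difference. The processed intensity of its probe read 4687, 4329 and 4284 in the sham mice, against 29691, 26820 and 34481 in the suspended mice. Every suspended mouse lay far above every sham mouse, and the sham arrays lay close together. The level rose from 3.82 ± 0.05 in sham to 6.37 ± 0.19 in tail-suspended hearts (SD, n = 3 each), a log2 difference of 2.56 with a standard error of 0.12, or 5.88-fold. Between the highest sham array and the lowest tail-suspension array there was a gap of 2.29 on the log2 scale. Tail-suspension replicate 1, which shared the slide row of the sham arrays, lay 2.63 above the sham mean, and replicates 2 and 3 lay 2.34 and 2.70 above it. Only 1 suspended mouse was measured in the sham row, so group and slide row cannot be fully told apart. In rank, Ctgf stood at position 82 of 28032 probes from the most increased. In whole tissue, a change in RNA per cell and a change in the number of cells that carry the transcript cannot be told apart.

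Cyr61, which encodes the angiogenic protein CCN1 and is often described together with Ctgf as a YAP target, did not pass the threshold. Its processed intensity was 2058, 2435 and 1971 in sham and 2310, 2427 and 2006 in tail-suspended hearts. The groups covered nearly the same range. The level averaged 2.77 ± 0.14 in sham against 2.62 ± 0.18 in tail-suspended hearts (SD, n = 3 each), a log2 difference of -0.15 with a standard error of 0.13. Its sign stayed negative under all 15 other fits, with values from -0.22 to -0.01. Before scaling, however, the mean intensity was slightly higher in tail-suspended hearts, 2248 against 2155 in sham. The sign thus depends on scaling each array, which these fits share.

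Wisp2, the family member without the C-terminal domain, had the opposite direction to Ctgf. Its processed intensity was 429.6, 476.4 and 429.7 in sham and 387.9, 371.6 and 290.8 in tail-suspended hearts. Every suspended mouse lay below every sham mouse, with the lowest value in tail-suspension replicate 3. The level averaged 0.50 ± 0.08 in sham against -0.07 ± 0.28 in tail-suspended hearts (SD, n = 3 each), a log2 difference of -0.57 with a standard error of 0.15. Intensity relative to the array was thus 1.48-fold higher in sham. The gap between the groups was 0.23 on the log2 scale, smaller than the SD among tail-suspension arrays. Replicate 1, in the sham row, differed from the sham mean by -0.31, against -0.52 and -0.87 for replicates 2 and 3. The call was not stable. It was kept in 6 of 15 other fits and lost without each of the sham arrays, without tail-suspension replicate 2 or 3, with the slide row or the replicate number as a block, without the filter on dim probes and with the methods' t-test after adjustment.

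Wisp1, named for its induction by WNT1, was dim. The probe that starts at base 4899 had processed intensities of 112, 69.6 and 78.8 in sham and 119, 85.7 and 156 in tail-suspended hearts. The probe that starts at base 1218 had 70.3, 38.1 and 38.6 in sham and 71.0, 35.5 and 85.4 in tail-suspended hearts. On both probes the same arrays were high, namely sham replicate 1 and tail-suspension replicates 1 and 3, and the groups overlapped. The log2 differences were 0.25 with a standard error of 0.26 for the first probe and 0.14 with a standard error of 0.39 for the second. Neither passed the threshold. The second probe's difference ran from -0.09 to 0.54 over the other fits and so had no settled sign. The 2 probes measure 1 gene and are not separate evidence of its level.

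Nov, the founding nephroblastoma-associated member, was at the edge of detection. It was well above background on sham replicate 3 and on tail-suspension replicate 1 only. Its processed intensity was 4.24, 8.91 and 16.2 in sham and 21.8, 20.2 and 18.7 in tail-suspended hearts. All suspended mice had higher raw intensities than all sham mice, but the order did not hold after scaling, where sham replicate 3 and tail-suspension replicate 2 both stood at -4.22 and tail-suspension replicate 3 at -4.33. The scanner software's own error for these spots ran from 16.7% to 73.6% of the signal. Nov was not detected on all arrays of either group, so it was not fitted and no fold is given. Only the alternative without the filter on dim probes included it, and its difference there is not given.

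**Figure D1:**
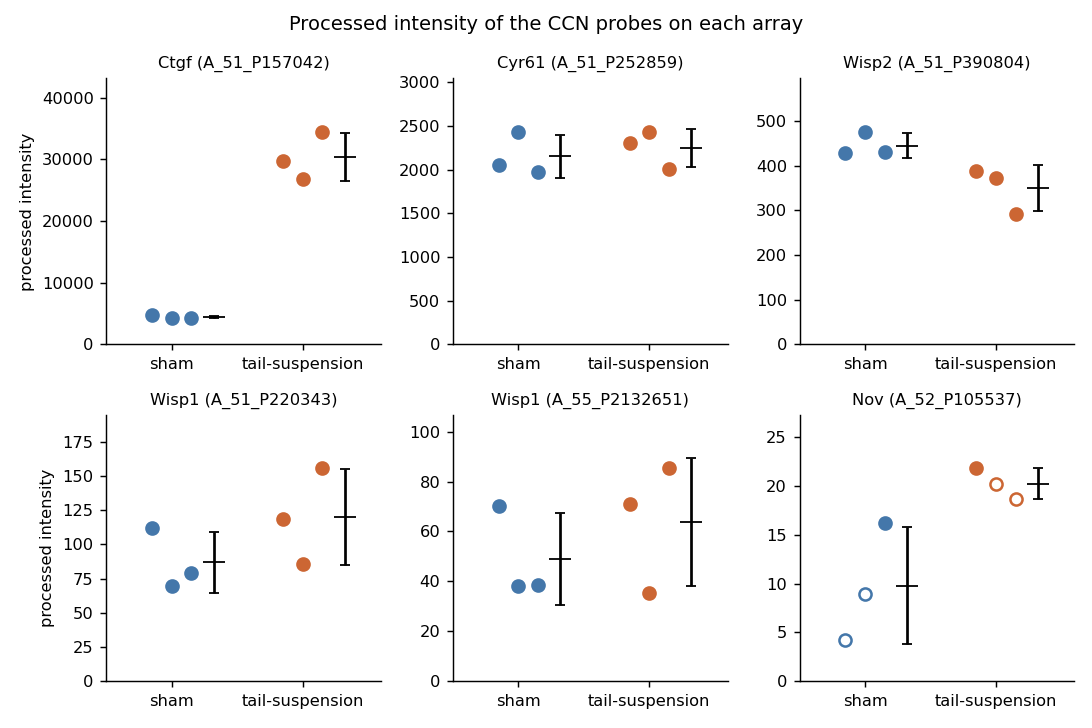
Processed intensity (vertical axes, linear, each panel with its own scale from 0) of the 6 CCN probes on the 3 sham (blue) and 3 tail-suspension (orange) arrays; the bar to the right of the points is the mean ± SD, and open circles are spots not well above background. Ctgf separates the groups, from 4284 to 4687 in sham and from 26820 to 34481 in tail suspension, Wisp2 lies slightly lower in tail suspension, and Cyr61 and both Wisp1 probes overlap.

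The plot of intensities shows these patterns side by side, and the spread within groups differs by member. Within the tail-suspension group the highest array exceeded the lowest by 1.29-fold for Ctgf, by 1.27-fold for Cyr61 and by 1.47-fold for Wisp2 after scaling. The same ratio was 1.82 and 2.41 for the Wisp1 probes, which leaves little room to see a difference of the size found for Wisp2.

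**Figure D2:**
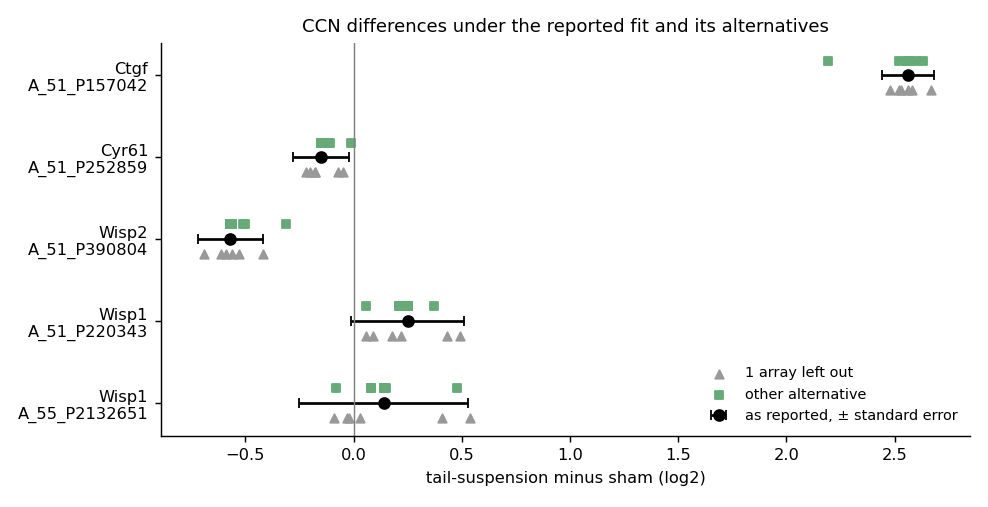
Tail-suspension minus sham difference (horizontal axis, log2) of the 5 fitted CCN probes: black circles with bars are the reported fit ± standard error, grey triangles leave out 1 array and green squares use another normalization, filter, block or test. Ctgf ranged from 2.19 to 2.67 and Wisp2 from -0.69 to -0.31, whereas the Wisp1 probe A_55_P2132651 crossed 0.

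Over the 15 other fits, which use the same arrays and so add no independent evidence, the Ctgf difference ran from 2.19 to 2.67. The lowest of these came from the log2 values deposited by the authors. The Wisp2 difference was negative in all 15, and its smallest size, -0.31, came from the fit with the slide row as a block, which leaves replicate 1 as the only suspended mouse set directly against the sham mice.

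Genes whose profile over the 6 arrays was most like that of each member were ranked by Pearson's correlation among 1473 genes that varied by an SD of at least 0.5 on the log2 scale. The points share libraries and the group difference, so the values are descriptive. Nearest to Ctgf were Fyb, an adaptor protein of immune cells (r = 0.9995), Rasef (r = 0.9965) and Hif3a, a hypoxia-inducible factor (r = 0.9965). All 3 had positive differences, of 1.15, 1.72 and 3.89 on the log2 scale. Rasef was dim in sham, with a mean of -4.01. That is near the lowest signals well above background on the sham arrays, from -4.48 to -4.28, so the size of its difference is uncertain. Nearest to Wisp2 were Gm14484 (r = 0.9918), Sqle, the squalene epoxidase of cholesterol synthesis (r = 0.9902), and Gpr183, an oxysterol receptor (r = 0.987). Sqle differed by -1.48. Gm14484 and Gpr183 were too dim in tail suspension for a difference to be given. Nearest to Cyr61 were Gm2115 (r = 0.9542), Sox10 (r = 0.9246) and Chl1 (r = 0.9201). Nearest to Wisp1, read from probe A_51_P220343, were D430042O09Rik (r = 0.9805), Fcna (r = 0.9559) and Sun3 (r = 0.9142). No gene appeared under more than 1 member, which says little because only 3 genes were taken for each.

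Around the family, 6 lists of 99 genes were read, covering what drives CCN genes and what CCN proteins bind. These lists, too, were drawn up with earlier results of the same arrays known. The adjusted p-values printed for their genes therefore describe these arrays and are no independent test. Each gene was taken from its brightest fitted probe, and 87 genes were fitted. Among all 14200 genes read in this way, 10.5% were higher and 11.2% were lower in tail-suspended hearts, and the median difference was -0.02 on the log2 scale. Of the 87 genes, 11 were higher and 10 were lower, and the groups did not overlap for 44 of the 87. The share of 44.0% given above is over fitted probes and not over genes, so the units differ. With the slide row as a block, limma called 0 of the 87 genes at an adjusted p under 0.05 and 23 at an unadjusted p under 0.05. In all 21 called genes, tail-suspension replicate 1, in the sham row, differed from the sham mean in the direction of the call. This array was among those that gave the calls. The shared direction was therefore largely set beforehand and does not separate group from slide row.

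Among other YAP/TAZ-TEAD target genes, 5 of 18 fitted genes were higher, 1 was lower and 12 did not pass, with a median difference of 0.22. Igfbp3, which encodes an insulin-like growth factor binding protein, rose from 0.02 ± 0.25 to 1.47 ± 0.23 (SD, n = 3 each), a log2 difference of 1.45 with a standard error of 0.17 (limma, adjusted p = 0.00466). Ankrd1, the stretch-responsive cardiac ankyrin repeat protein, rose from 6.57 ± 0.21 to 7.54 ± 0.13, by 0.97 with a standard error of 0.13 (limma, adjusted p = 0.00766). Ptpn14, a phosphatase that binds YAP, rose by 0.72 with a standard error of 0.10 (limma, adjusted p = 0.00701). These 3 genes separated the groups without overlap and passed in 14 of 15 other fits. Amotl2, an angiomotin that retains YAP in the cytoplasm, rose by 0.66 (limma, adjusted p = 0.0200), and Nt5e, the ectonucleotidase CD73, rose by 0.53 (limma, adjusted p = 0.0404). The calls of Amotl2 and Nt5e were kept in 9 and 6 of 15 other fits. Against this direction, Gadd45a, a stress-induced growth arrest gene, fell from 0.48 ± 0.31 to -0.54 ± 0.20, a difference of -1.02 (limma, adjusted p = 0.0142). Myof and Foxf2 were not well above background on any array and were not fitted. Cyr61, as given above, did not pass the threshold.

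The genes of the Hippo pathway, which restrains YAP and TAZ, mostly did not pass. Of 16 fitted genes 1 was higher, 1 was lower and 14 did not pass, with a median of -0.10. Other fitted probes differed by -0.72 for Nf2, -0.43 for Stk4, -0.25 and -0.44 for Tead1, 0.34 for Tead2 and -0.04 for Mob1b. Read from the probe with the smallest p, 1 gene was higher and 2 were lower. Tead3, one of the DNA-binding partners of YAP, rose from -3.01 ± 0.05 to -2.43 ± 0.04, by 0.58 with a standard error of 0.08 (limma, adjusted p = 0.00748). Amot, an angiomotin, fell from 1.85 ± 0.08 to 1.32 ± 0.19, a difference of -0.53 (limma, adjusted p = 0.0288). Yap1 and Wwtr1, the genes of YAP and TAZ, were named after their values were seen. Their differences were -0.23 with a standard error of 0.14 and -0.27 with a standard error of 0.09, and neither passed (limma, adjusted p = 0.264 and 0.0697).

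Genes of TGF-beta signalling, the other classic inducer of Ctgf, had calls in both directions. Of 14 fitted ligands, receptors, Smads and regulators, 3 were higher, 3 were lower and 8 did not pass, with a median of 0.02. The receptor genes Tgfbr2 and Tgfbr3 rose by 0.49 and 0.40 (limma, adjusted p = 0.0398 and 0.0471), and the inhibitory Smad7, itself a TGF-beta target, rose by 0.51 (limma, adjusted p = 0.0246). The signal-transducing Smad2 and Smad3 had differences of -0.44 and -0.48 (limma, adjusted p = 0.0248 and 0.0472), and Ltbp1, which holds latent TGF-beta in the matrix, had a difference of -0.47 (limma, adjusted p = 0.0381). The second fitted probe of Smad3 had a larger difference, of -1.61, and that of Tgfbr2 had 0.43. The ligand gene Tgfb1, named after its value was seen, differed by 0.08 with a standard error of 0.11 and did not pass (limma, adjusted p = 0.613). The calls of this list were kept in 5 to 9 of 15 other fits.

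Among genes for proteins that bind CCN proteins, 2 of 16 fitted genes were higher, 1 was lower and 13 did not pass, with a median of 0.18. Read from the probe with the smallest p, 3 genes were higher and 2 were lower. Integrin subunit Itgb5 rose from 4.78 ± 0.14 to 5.43 ± 0.11, by 0.65 with a standard error of 0.11 (limma, adjusted p = 0.0124). Itgb3, whose product pairs with the alpha v subunit, rose from -0.91 ± 0.25 to 0.22 ± 0.53, by 1.13 with a standard error of 0.27 (limma, adjusted p = 0.0333), and was called in 6 of 15 other fits. Itga6, the laminin-binding alpha 6 subunit through which Ctgf and Cyr61 act on fibroblasts and endothelial cells, fell from 4.61 ± 0.17 to 3.38 ± 0.15, a difference of -1.23 with a standard error of 0.13 (limma, adjusted p = 0.00333). The Itga6 groups did not overlap, and its call was kept in 14 of 15 other fits.

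Of the SRF and MRTF genes, an actin-sensing route to Ctgf and Cyr61, 0 of 13 fitted genes were higher, 3 were lower and 10 did not pass, with a median of -0.15. The cytoskeletal actins Actb and Actg1 fell from 7.72 ± 0.22 to 7.04 ± 0.17 and from 7.47 ± 0.16 to 6.86 ± 0.11 (limma, adjusted p = 0.0245 and 0.0174). Fhl2, a LIM-domain protein abundant in heart, fell from 8.80 ± 0.03 to 8.22 ± 0.27 (limma, adjusted p = 0.0357). The calls of Fhl2, Actb and Actg1 were kept in 7, 8 and 9 of 15 other fits. Not all genes of this list fell: 5 of the 13 had positive differences, and none of these passed. Named after their values were seen, Cnn1, Tagln, Myl9 and Acta2 were among them, with 0.64, 0.36, 0.24 and 0.19. Of the canonical Wnt genes, the route after which the Wisp genes are named, 6 of 16 were not well above background on any array, among them the reporter targets Axin2 and Sp5. Of the 10 fitted, 0 were higher and 1 was lower. That gene was Ccnd1, the G1 cyclin D1, which fell from 3.59 ± 0.21 to 2.52 ± 0.40, a difference of -1.07 with a standard error of 0.21 (limma, adjusted p = 0.0203).

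**Figure D3:**
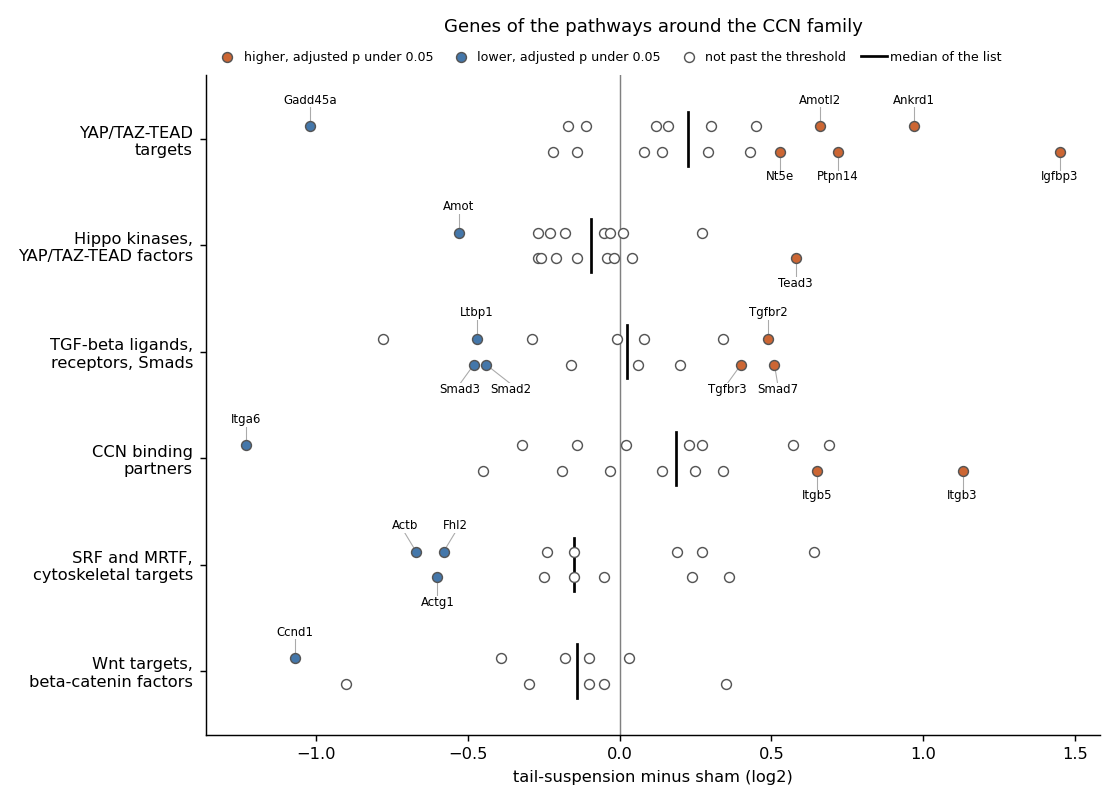
Tail-suspension minus sham difference (horizontal axis, log2) of each fitted gene of the 6 lists around the CCN family; filled points passed an adjusted p of 0.05 (orange higher, blue lower), open points did not, and the black bar is the list median. The YAP/TAZ-TEAD targets have 5 higher and 1 lower of 18 genes and a median of 0.22. The SRF list has 3 lower of 13 genes and the Wnt list 1 lower of 10. Among all genes read in this way, 10.5% were higher and 11.2% were lower.

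The called genes of each list, as plotted, were few, and none remained called with the slide row as a block. Differences between lists were not tested, and every count stood beside a background of 10.5% higher and 11.2% lower genes.

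The heart contains several cell types that make or respond to CCN proteins, so marker genes of each were read from the same arrays. Over all 14200 genes read in this way, 10.5% were higher and 11.2% were lower. The marker counts below stand beside these shares, and with at most 7 genes per list nothing is read from a single call. All 7 cardiomyocyte markers were well above background on the 6 arrays and 0 of 7 passed the threshold when read from the brightest probe. A second fitted probe of Myh6 differed by -1.47, against -0.09 for the probe used. Levels were also summed over each list, in units of the 75th percentile, and such a sum is weighted towards its brightest probes. The cardiomyocyte sum was 2217 to 2445 in sham and 2113 to 2277 in tail suspension. Of 7 skeletal muscle markers, Myh1, Myh2, Myh4 and Actn3 were not well above background on any array.

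Fibroblasts are a main source of matricellular proteins. Of 7 fibroblast markers 0 were higher and 1 was lower, with a median of -0.63. The lower gene was Col3a1, the type III collagen chain, with a difference of -1.88 and a standard error of 0.36 (limma, adjusted p = 0.0177), called in 10 of 15 other fits. The summed level of the list was 68.3 to 90.7 in sham and 31.5 to 61.5 in tail suspension. The fibroblast markers Pdgfra and Tcf21 differed by 0.19 and -0.03 and did not pass.

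Of 7 endothelial markers 0 were higher and 4 were lower, against 10.5% higher and 11.2% lower over all genes. The 4 were Kdr, Emcn, Tie1 and Egfl7, with differences of -0.55, -0.50, -0.43 and -0.31. Kdr was called in 11 of 15 other fits, Emcn in 7, and Tie1 and Egfl7 in 5 each. Their summed level was 153 to 163 in sham and 118 to 131 in tail suspension. Of 7 smooth muscle and pericyte markers 1 was higher, Des (0.87), which cardiomyocytes also express, and 1 was lower, Kcnj8 (-0.56). Des was called in 14 of 15 other fits and Kcnj8 in 7. The summed level was 97.2 to 104 in sham and 129 to 137 in tail suspension, and Des carried nearly all of this rise.

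Among blood cell markers, the calgranulins S100a8 and S100a9 had the largest differences. Of 5 fitted neutrophil markers 3 were higher and 2 did not pass. S100a8 and S100a9 had differences of 4.80 and 4.62 and were called in all 15 other fits, whereas Csf3r and Elane differed by 0.30 and -0.30 and did not pass. The other called gene, Mpo, which no sham array detected well above background, was at least 2.20-fold higher. The neutrophil median was the value of Mpo itself, 2.31, or 1.14 with Mpo at its bound, and so rests on that probe. The summed level was 144 to 172 in sham and 207 to 234 in tail suspension, carried mostly by Csf3r. Of 6 fitted macrophage markers 1 was higher, Cd163, which likewise no sham array detected and which was at least 3.39-fold higher. Mpo and Cd163 entered the fit only through the group in which they were high, so they had to differ and their calls count for little. The bound in both cases is set by the lowest signal well above background on each sham array. The macrophage summed level was 27.2 to 36.3 in sham and 30.3 to 47.7 in tail suspension. Of 6 fitted erythroid markers 0 passed, with a median of -1.52 and a summed level of 1088 to 1464 in sham and 324 to 896 in tail suspension. The part of these markers in the values of Ctgf and Wisp2 was not tested.

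**Figure D4:**
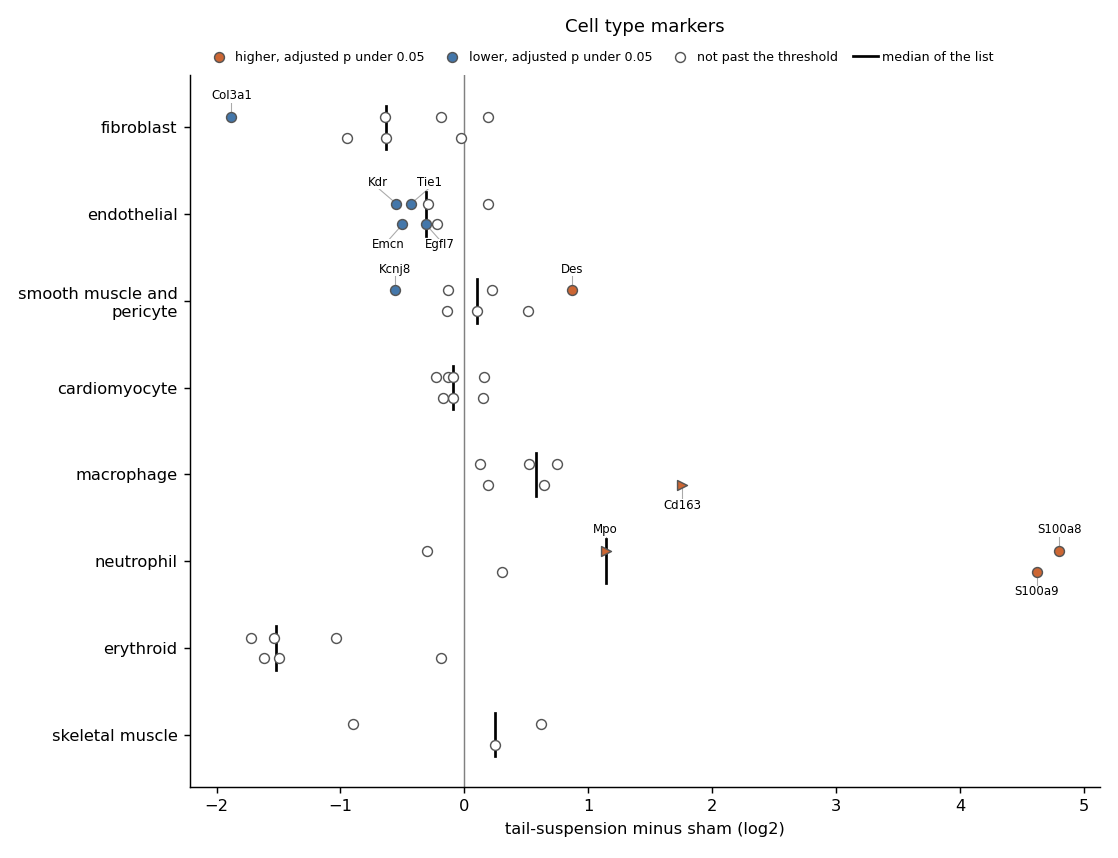
Tail-suspension minus sham difference (horizontal axis, log2) of each fitted marker gene of 8 cell types; filled points passed an adjusted p of 0.05 (orange higher, blue lower), triangles pointing right are lower bounds for probes that no sham array detected well above background, and the black bar is the list median. Cardiomyocyte markers lie near 0 (median -0.09), fibroblast, endothelial and erythroid medians are negative, and S100a8 and S100a9 lie at 4.80 and 4.62. Over all genes read from their brightest fitted probe, 10.5% were higher and 11.2% were lower.

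As plotted, the single genes of a marker list often spread to both sides of 0, and most of them did not pass the threshold.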

How the data were processed

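Per the labels, total RNA of 6 hearts was measured on 1-colour arrays. The authors deposited scanner intensity values per spot, extracted with Agilent Feature Extraction 10.7.1.1 according to the submitters' processing notes, and a table of log2 values, which was used as an alternative. The number of arrays, and not read depth, limits the precision.

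From the processed intensity, control spots and outlier spots were left out, spots of a probe were averaged, and the log2 value minus the array's 75th percentile was taken. An array was taken to detect a probe if 50% or more of that probe's spots were well above background, and probes detected throughout the sham or the tail-suspension arrays were fitted with limma 3.58.1 in R 4.3.3 (lmFit and eBayes, Benjamini-Hochberg over all fitted probes, threshold 0.05). The 3 mice of a group were separate animals. A gene was read from its brightest fitted probe. Of 36163 array names, 21938 matched symbols or synonyms of a RefSeq table, which was used for names only. Of each list, at most 6 genes past the threshold were named, those with the largest differences, and others only where stated. The members and lists were chosen with earlier results of these data known. As alternatives, the background was corrected by normexp (offset 50), the arrays were quantile normalized or scaled to another percentile, and the fit was repeated with the deposited log2 values, 2 other filters, the methods' t-test, the replicate number or slide row as a block, leaving out each array, and another probe per gene. The fit was tested on simulated data.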

Additional observations from a re-analysis of the deposited data

How the results depend on the processing

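The Ctgf difference kept its direction and its side of the threshold in all 15 other fits of the same arrays, which are no independent support, although the deposited log2 values gave 2.19 in place of 2.56. The Wisp2 difference kept its direction in all 15, was -0.31 with the slide row as a block, and kept its call in 6. Because of Wisp2, the 2 CCN probes past the threshold became 1 without the filter on dim probes, with the methods' t-test, with the replicate block and with the slide row block, and 1 to 2 when single arrays were left out. The 11 higher genes of the 6 lists became 5 without the filter, 6 with the methods' t-test, 0 with the slide row block and 4 to 13 when single arrays were left out. The 10 lower genes became 1, 2, 0 and 2 to 6 under the same settings, and 5 with the replicate block. Reading each gene from its probe with the smallest p, a choice that favours calls, gave 12 higher and 12 lower genes. The fit without the filter called 1041 higher and 790 lower probes, against 3023 and 2683. The paired fit, with the replicate block, called 1714 and 1403, and same-numbered arrays did not deviate together (correlations of -0.0198, -0.0176 and 0.0496), so the numbers are not treated as pairs. The methods' t-test called 36 of the 87 list genes at an unadjusted p under 0.05 and 8 after adjustment. Background correction, quantile normalization and the percentile changed no CCN call. With 3 arrays per group on 1 slide, and the second row holding suspended mice alone, a call such as that of Wisp2 was easily lost. It was lost without most of the single arrays, with the Wisp2 difference between -0.69 and -0.42 in the fits that left out 1 array. The dim Wisp1 and Nov signals limit these genes further.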
